A study of Mus musculus with 6 samples.

Results

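The genes of haem and iron recycling followed here were Spic, Cd163, Slc48a1, Hmox1, Blvrb, Slc11a1, Fth1, Ftl1, Slc40a1 and Tfrc. They were chosen by gene name, as genes of iron handling in red pulp macrophages, and are 10 of the 55951 genes in the deposited expression table, each with 1 row. The libraries came from spleens of C57BL/6 mice with the genotype S100A4-EGFP, in a model of asthma induced by ovalbumin (OVA). Libraries sorted as CD3+CD8+CD4-CD44+CD62L-EGFP+ are called S100A4-positive and those sorted as CD3+CD8+CD4-CD44+CD62L-EGFP- are called S100A4-negative, with 3 libraries each. Both sorts share the mouse strain, the reporter genotype, the tissue and the asthma model. CD44 without CD62L is the surface pattern of effector-memory T cells, and EGFP is the green reporter of S100A4, a small calcium-binding protein. The labels name neither the locus that drives the reporter, nor the age of the mice, nor whether the 3 libraries of a group came from separate animals, so p-values measure only the spread between these libraries, which may be technical.

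Red pulp macrophages of the spleen engulf old red blood cells and return their iron to the blood. Haem leaves the digesting vacuole, haem oxygenase opens its ring and frees the iron, and the iron is then stored in ferritin or exported through ferroportin. The transcription factor SPI-C is needed for these macrophages in mice, and haem induces it by removing the repressor BACH1. Iron also acts on mRNA. When iron is scarce, iron regulatory proteins bind a hairpin called the iron-responsive element (IRE). Binding ahead of the coding sequence blocks translation, and binding behind it protects the mRNA from decay.

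Among the 10 members, 4 hold a match to such an element in the GENCODE M21 transcripts. Their sites are printed because they divide the matching genes of storage and export from the matching gene of uptake. The search looked for CNNNNNCAGTGN on the mRNA strand, with any base but G in the last place, where the 5 bases before CAGTGN pair with the 5 bases after it (G with T allowed). Each site is written 5′ to 3′ in DNA letters with the 6 bases of the loop in capitals, and positions are on GRCm38.
Fth1, 5′ UTR, chr19:9982732-9982760, + strand: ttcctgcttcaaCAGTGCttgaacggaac
Ftl1, 5′ UTR, chr7:45459779-45459807, - strand: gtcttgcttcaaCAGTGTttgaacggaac
Slc40a1, 5′ UTR, chr1:45925465-45925493, - strand: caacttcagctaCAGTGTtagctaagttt
Tfrc, 3′ UTR, site 1, chr16:32631219-32631247, + strand: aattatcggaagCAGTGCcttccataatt
Tfrc, 3′ UTR, site 2, chr16:32631598-32631626, + strand: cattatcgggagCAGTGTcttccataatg
Tfrc, 3′ UTR, site 3, chr16:32631663-32631691, + strand: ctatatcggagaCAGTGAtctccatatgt
Tfrc, 3′ UTR, site 4, chr16:32631710-32631738, + strand: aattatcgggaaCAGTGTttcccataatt

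Of 21877 protein-coding genes searched, 23 (0.105%) held a match in the 5′ UTR and 100 (0.457%) in the 3′ UTR. Fth1, Ftl1 and Slc40a1, with the element ahead of the coding sequence, had higher mRNA in S100A4-positive libraries, as described below. Tfrc, with 4 elements behind it, had lower mRNA there. Outside the members, Alas2, a haem synthesis gene, also matched in the 5′ UTR and was not called (log2 fold change 0.24, limma adjusted p = 0.663). In the account above, binding ahead of the coding sequence acts on translation, which mRNA levels do not measure. The part of the elements in these mRNA levels was not tested. Spic, Hmox1, Slc11a1, Slc48a1, Cd163 and Blvrb held no match. A match is a description of the letters and not evidence that a protein binds there. In the promoter windows of RefSeq (GRCm38.p6, 250 bases before to 50 after a start), 7 of the 10 members matched by symbol, with 10 windows, and Hmox1, Slc40a1 and Slc48a1 were not searched. None of these 10 windows holds TGACNNNGC, the core of the antioxidant element, on either strand, against 12.4% of all 32851 windows. With so few windows, and none reaching past 250 bases before a start, this does not show that the members lack the element.

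Values are FPKM as deposited, fragments scaled to transcript length and library depth. Reads counted in genes, as computed back from the deposited values, totalled 14925260 to 18660188 per library, which is not the full sequencing depth. The labelled cell type was checked against its markers. All 12 T cell markers were detected in every library, but their summed level was 372 to 546 FPKM in S100A4-positive libraries and 2485 to 2931 FPKM in S100A4-negative ones, and all 12 fell. S100a4 itself had 9, 25 and 11 reads in S100A4-positive libraries and 0, 3 and 1 in S100A4-negative ones. The 13241 genes whose FPKM averaged 1 or more were tested with limma on log2(FPKM + 1). A positive fold change means higher in S100A4-positive libraries. On that scale changes of weakly expressed genes come out too small, and an adjusted p under 0.05 (Benjamini-Hochberg over all tested genes) is a call.

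Of the 10 members 9 were tested, 8 rose and Tfrc fell. Over all tested genes 62.3% were called, with 19.0% called higher and 43.4% called lower. Their median log2 fold change was -0.36. That split depends on scaling, since 30.4% of calls were higher as deposited, 53.3% after median-of-ratios rescaling and 41.7% after quantile normalization. These rescalings shifted the median of all genes by 0.34 and 0.19. The tested members had a median of 2.69. The groups did not overlap in any of the 9 tested members, a pattern seen in 70.0% of all tested genes. The authors' deposited table calls 8 of the members, where 18.9% of its 28627 tested genes are called, and leaves out Cd163 and Tfrc. Those 28627 genes include many below the filter used here, so the 18.9% is not comparable with the 62.3% above. In bulk libraries like these, more cells of a type and more RNA per cell cannot be told apart.

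**Figure D1:**
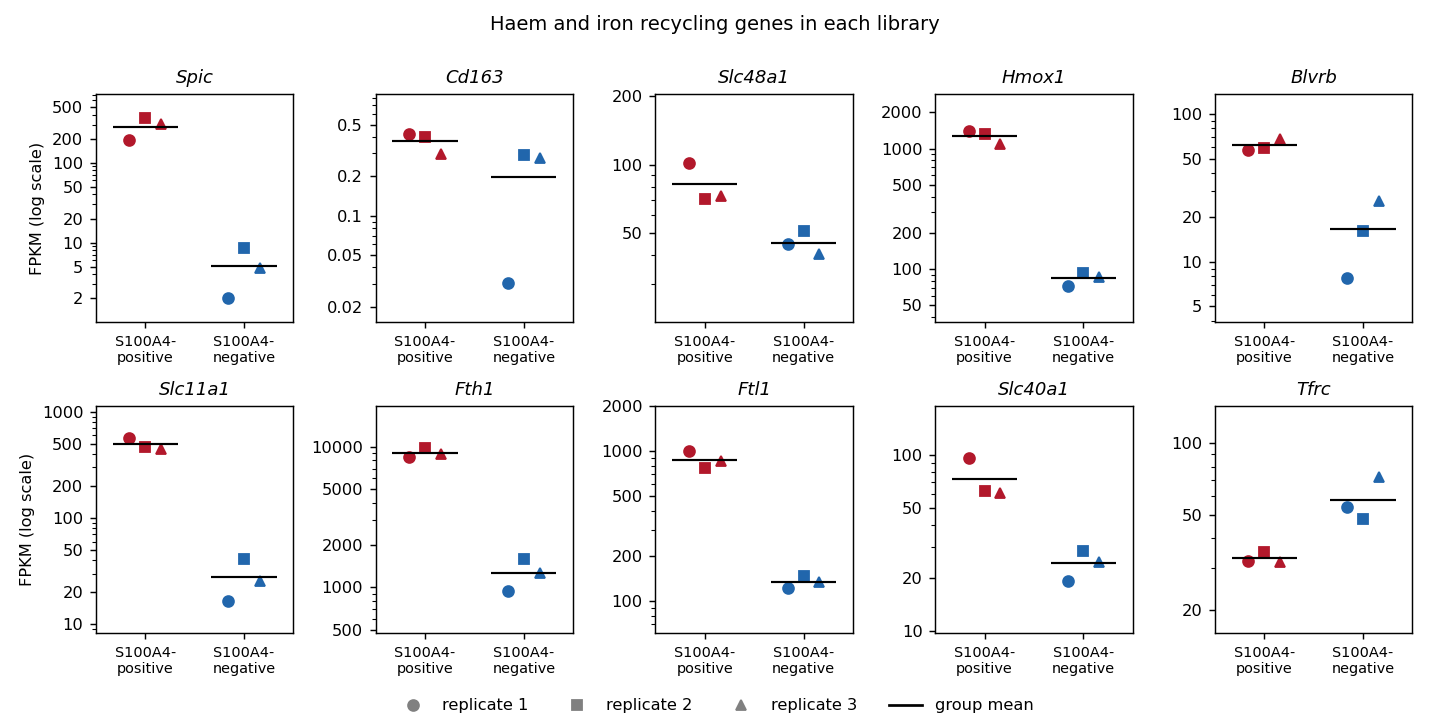
FPKM (log scale) of each member in the 3 S100A4-positive (red) and 3 S100A4-negative (blue) libraries, with marker shapes for replicates and a line at the group mean. Hmox1 lies between 1102 and 1416 FPKM in S100A4-positive libraries and between 72.4 and 92.3 in S100A4-negative ones, while Tfrc is the 1 member whose S100A4-positive libraries lie below.

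Spic, the transcription factor of red pulp macrophages (ENSMUSG00000004359, chromosome 10, 88674772 to 88685015), had the largest difference among the members. It was at 190.0, 358 and 301 FPKM in S100A4-positive libraries, against 2.02, 8.44 and 4.78 FPKM in S100A4-negative ones. The lowest S100A4-positive library was far above the highest S100A4-negative one. The means were 283 ± 85.6 and 5.08 ± 3.22 FPKM (SD, n = 3 each), a ratio of 55.8. Spic rose by 5.65 (SE 0.41, limma adjusted p = 6.64e-05), the ninth largest rise of all tested genes (rank 9).

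Cd163, the scavenger receptor for haemoglobin bound to haptoglobin (ENSMUSG00000008845, chromosome 6, 124304656 to 124330527), was close to absent in both groups. Its levels were 0.426, 0.398 and 0.297 FPKM in S100A4-positive libraries and 0.0304, 0.290 and 0.277 FPKM in S100A4-negative ones. These came from 28, 23 and 20 reads in S100A4-positive libraries and from 2, 20 and 20 in S100A4-negative ones. It was the 1 member below the filter and was not tested there. With no filter its difference was 0.20 and did not pass (limma adjusted p = 0.208), and the authors' deposited table gives a log2 fold change of 1.31 with an adjusted p of 0.0949. With so few reads and 3 libraries each, this does not show that Cd163 was equal in the groups.

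Slc48a1, which encodes the haem transporter HRG1 of the digesting vacuole (ENSMUSG00000081534, chromosome 15, 97778520 to 97792692), rose least. Its levels were 102, 71.0 and 73.0 FPKM in S100A4-positive libraries and 44.9, 50.9 and 40.7 FPKM in S100A4-negative ones. Replicate 1 stood above the other S100A4-positive libraries, and the groups were separate without it too. The rise was 0.82 (SE 0.17, limma adjusted p = 0.00462), a ratio of means of 1.80. Of its exon bases 1.05% are shared with Hdac7 on the opposite strand.

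Hmox1, the inducible haem oxygenase that opens the haem ring (ENSMUSG00000005413, chromosome 8, 75093621 to 75100589), was among the most abundant mRNAs of the S100A4-positive libraries. It was at 1416, 1322 and 1102 FPKM there, against 72.4, 92.3 and 85.8 FPKM in S100A4-negative libraries. By FPKM it ranked 26, 43 and 51 of all genes in S100A4-positive libraries and 1882, 1442 and 1594 in S100A4-negative ones. The rise was 3.92 (SE 0.15, limma adjusted p = 8.72e-06), from means of 1280.2 ± 161 and 83.5 ± 10.1 FPKM (SD, n = 3 each).

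Blvrb, a biliverdin reductase that also reduces flavins (ENSMUSG00000040466, chromosome 7, 27447978 to 27466144), differed less. Its levels were 57.5, 58.9 and 68.2 FPKM in S100A4-positive libraries, which lay close together, and 7.82, 16.3 and 25.9 FPKM in S100A4-negative ones, which spread more than 3-fold. The rise was 1.96 (SE 0.36, limma adjusted p = 0.00291), or 1.53 without S100A4-negative replicate 1. In both groups Blvrb was highest in replicate 3. Erythroid markers, whose cells also make Blvrb, summed to 57.9, 258 and 202 FPKM in S100A4-positive libraries 1, 2 and 3 and to 58.6, 78.0 and 293 FPKM in S100A4-negative ones. Their part in the level of Blvrb was not tested.

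Slc11a1, which encodes the metal transporter NRAMP1 of the phagosome membrane (ENSMUSG00000026177, chromosome 1, 74375195 to 74386062), had the second largest rise of the members. It was at 572, 465 and 443 FPKM in S100A4-positive libraries, against 16.4, 40.8 and 25.6 FPKM in S100A4-negative ones, with no overlap. The rise was 4.19 (SE 0.30, limma adjusted p = 5.74e-05), a ratio of means of 17.9. C57BL/6 mice are known to carry an allele of Slc11a1 whose protein does not work, which an mRNA level does not show. Neutrophils also express Slc11a1. Of 12 neutrophil markers 11 fell in the same libraries. The marker sums were 1868, 567 and 447 FPKM in S100A4-positive libraries 1, 2 and 3 and 3530 to 5267 FPKM in S100A4-negative ones. The part of neutrophils in the level of Slc11a1 was not tested.

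Fth1, the ferritin heavy chain that oxidises iron for storage (ENSMUSG00000024661, chromosome 19, 9980598 to 9985098), had the highest FPKM of any gene in all 3 S100A4-positive libraries. Its levels were 8451, 9837 and 8932 FPKM there, and 943, 1589.8 and 1259 FPKM in S100A4-negative libraries, where it ranked 79, 37 and 50. It took 0.761%, 0.886% and 0.805% of the reads counted in genes in S100A4-positive libraries, against 0.0850%, 0.143% and 0.113% in S100A4-negative ones. The rise was 2.87 (SE 0.24, limma adjusted p = 1.07e-04), a ratio of means of 7.18.

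Ftl1, the ferritin light chain that helps the iron core form (ENSMUSG00000050708, chromosome 7, 45457944 to 45459884), had lower levels than Fth1 in both groups. It was at 1005, 769 and 859 FPKM in S100A4-positive libraries and 122, 147 and 134 FPKM in S100A4-negative ones, with no overlap. The rise was 2.69 (SE 0.15, limma adjusted p = 2.25e-05). Ferritin genes have many pseudogenes, so reads could be divided among copies, and the labels do not say how shared reads were counted. The listed copies were low, with at most 5.37 FPKM for Fth-ps2 and 2.89 FPKM for Ftl1-ps1. Of the exon bases of Ftl1, 34.6% overlap other annotated genes, of which Gm10252 reached at most 5.18 FPKM and Gm22133 was listed at 0 in every library. Low values of these genes and copies do not show how many reads of Fth1 or Ftl1 were shared or dropped.

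Slc40a1, which encodes the iron exporter ferroportin (ENSMUSG00000025993, chromosome 1, 45908068 to 45926523), rose by 1.54 (SE 0.22, limma adjusted p = 8.71e-04). Its levels were 96.0, 62.7 and 61.1 FPKM in S100A4-positive libraries and 19.3, 28.6 and 24.8 FPKM in S100A4-negative ones. Replicate 1 was again the highest of the S100A4-positive libraries, and without it the rise was 1.33.

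Tfrc, the transferrin receptor that takes up iron and is high in dividing cells and erythroblasts (ENSMUSG00000022797, chromosome 16, 32608920 to 32632794), was the 1 member that fell. It was at 32.0, 34.9 and 31.9 FPKM in S100A4-positive libraries, which were nearly equal, and at 54.2, 48.1 and 72.1 FPKM in S100A4-negative ones. The log2 fold change was -0.78 (SE 0.16, limma adjusted p = 0.00470), or -0.42 relative to the median of all tested genes. The call rests on scaling: after median-of-ratios rescaling the log2 fold change was -0.40 and missed the threshold (limma adjusted p = 0.0510), and the authors' deposited table gives -0.42 with an adjusted p of 0.330. Most cell cycle genes were lower in the same libraries, with 12 of 14 called lower, 0 higher and 2 not passing. Over all tested genes 43.4% were called lower. The 2 not passing were Mki67 (log2 fold change 0.01, limma adjusted p = 0.974) and Pcna (-0.13, limma adjusted p = 0.545). The list had a median of -1.29 and sums of 374 to 519 FPKM in S100A4-positive and 717 to 940 FPKM in S100A4-negative libraries. The part of dividing cells in the level of Tfrc was not tested.

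**Figure D2:**
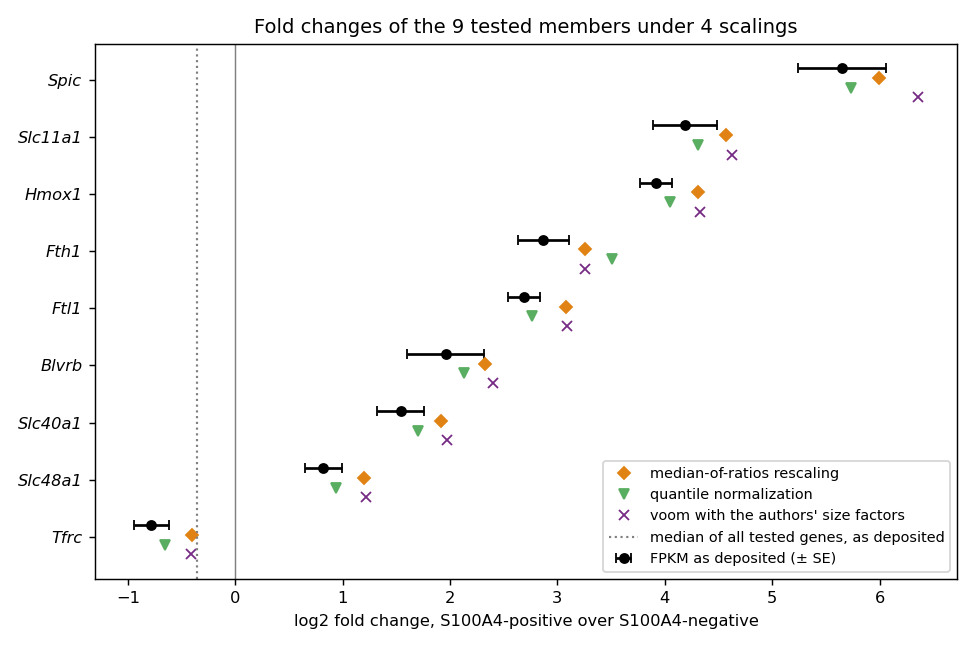
Log2 fold change (S100A4-positive over S100A4-negative) of the 9 tested members, as deposited with its SE (black) and under 3 other scalings (coloured), with a dotted line at the median of all tested genes as deposited. The 8 members that rose lie to the right of 0 under each of these scalings, from 0.82 for Slc48a1 to 5.65 for Spic as deposited, and Tfrc lies to the left.

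Ratios of members within a library do not depend on how libraries are scaled to each other. Slc40a1 over Tfrc, the exporter over the importer, was 3.0, 1.79 and 1.92 in S100A4-positive libraries and 0.357, 0.595 and 0.343 in S100A4-negative ones. Ferroportin mRNA thus exceeded that of the transferrin receptor in each S100A4-positive library and in no S100A4-negative one. On the log2(FPKM + 1) scale the difference was 2.32 (exact two-sided permutation p = 0.1, the smallest that 3 against 3 allows). Hmox1 over Blvrb, the inducible haem oxygenase over the reductase that also acts on flavins, was 24.6, 22.5 and 16.2 in S100A4-positive libraries. It was 9.26, 5.67 and 3.32 in S100A4-negative ones, a log2 difference of 1.96 (exact permutation p = 0.1).

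Hmox1 over Hmox2, the inducible over the constitutive haem oxygenase, was 34.4, 41.0 and 30.5 in S100A4-positive libraries and 2.23, 3.08 and 3.03 in S100A4-negative ones. The log2 difference was 3.66 (exact permutation p = 0.1). Hmox2 itself averaged 36.5 ± 4.46 FPKM in S100A4-positive and 30.3 ± 2.11 FPKM in S100A4-negative libraries (SD, n = 3 each) and was not called as deposited (log2 fold change 0.26, SE 0.13, limma adjusted p = 0.116). It was called higher after median-of-ratios or quantile rescaling and by voom with the authors' size factors. Fth1 over Ftl1, the heavy over the light ferritin chain, was 8.41, 12.8 and 10.4 in S100A4-positive libraries and 7.72, 10.8 and 9.38 in S100A4-negative ones. These ranges overlapped, and the log2 difference was 0.18 (exact permutation p = 0.5), which with 3 libraries each does not show that the balance is equal.

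**Figure D3:**
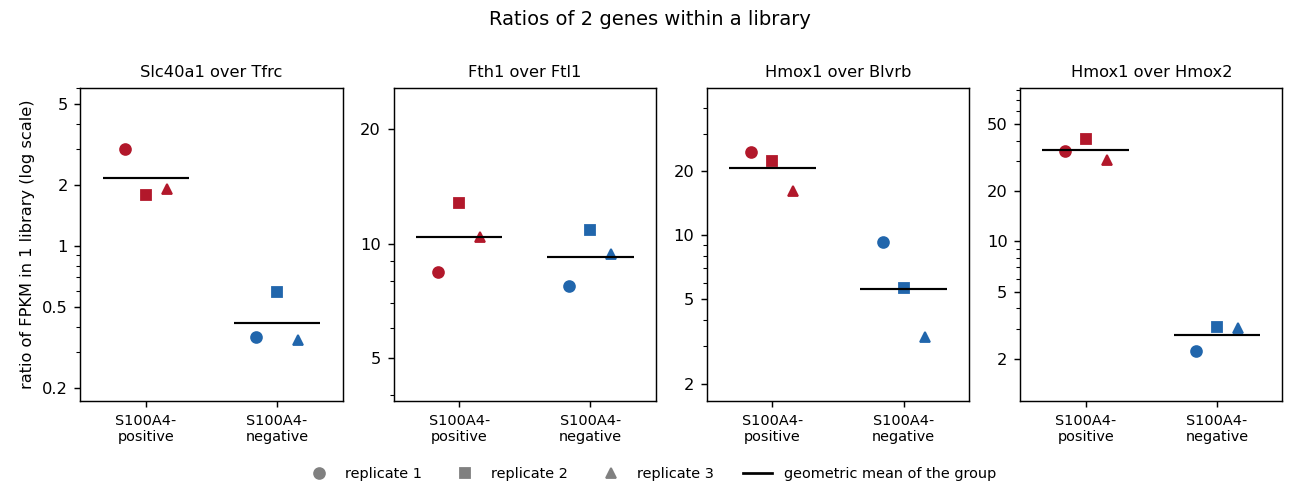
Ratio of the FPKM of 2 genes within each library (log scale) for 4 gene pairs, with S100A4-positive libraries in red, S100A4-negative libraries in blue, marker shapes for replicates and a line at the geometric mean. The groups are apart for Slc40a1 over Tfrc, Hmox1 over Blvrb and Hmox1 over Hmox2, and overlap for Fth1 over Ftl1 (8.41 to 12.8 and 7.72 to 10.8).

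Markers of monocytes and macrophages moved with the members. Of 16 such markers 15 rose, 0 fell and Ly6c2 did not pass. Their summed level was 7087 to 8475 FPKM in S100A4-positive libraries and 991 to 1263 FPKM in S100A4-negative ones, and none was at 0 in all libraries. Csf1r, which macrophages need to survive, rose by 5.52 and Cd68, a lysosomal glycoprotein, by 4.23. Adgre4, a myeloid adhesion receptor, and Fcgr4, an IgG receptor, rose by 6.09 and 4.35.

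Markers of red pulp macrophages other than the members followed, with 10 of 12 higher and 0 lower. Timd4 did not pass (limma adjusted p = 0.212) and Vsig4 was too low to test, at no more than 0.128 FPKM in any library. Their sum was 976 to 1077 FPKM in S100A4-positive and 51.3 to 146 FPKM in S100A4-negative libraries. Pparg, a nuclear receptor of tissue macrophages, averaged 78.2 ± 1.18 FPKM in S100A4-positive and 0.935 ± 0.532 FPKM in S100A4-negative libraries (SD, n = 3 each). Treml4, a receptor of splenic macrophages, rose by 5.12, C1qb, a chain of complement C1q, by 3.61 and Adgre1, the macrophage antigen F4/80, by 3.69. Cd163 and Vsig4 were thus at or near 0 where Spic, Treml4 and Pparg were high.

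Differences of the members were also set against these markers. The mean log2(FPKM + 1) of the 16 monocyte and macrophage markers was 7.26 ± 0.22 in S100A4-positive and 4.05 ± 0.20 in S100A4-negative libraries (SD, n = 3 each), a difference of 3.21. Relative to that mean, 3 members were higher in S100A4-positive libraries, Spic by 2.44, Slc11a1 by 0.98 and Hmox1 by 0.71. That mean depends on which markers are listed. Their own log2 fold changes ran from -0.36 for Ly6c2, 0.87 for Ccr2 and 0.91 for Nr4a1 to 6.09 for Adgre4. Spic, Slc11a1 and Hmox1, at 5.65, 4.19 and 3.92, lay within that range, so they did not exceed every marker. The differences were -0.34 for Fth1, -0.52 for Ftl1, -1.25 for Blvrb, -1.67 for Slc40a1, -2.39 for Slc48a1 and -3.99 for Tfrc. With a pseudocount of 0.1 that of Hmox1 was 0.41, that of Fth1 -0.65 and that of Ftl1 -0.82. The groups overlapped for Fth1 (exact permutation p = 0.2) and were apart for the other 8 members named here (exact permutation p = 0.1, the smallest possible). Cd163 is left out of this comparison, since at its level log2(FPKM + 1) stays near 0 in every library and the value would be little more than that of the markers. The part of macrophage RNA in the members' levels was not tested.

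Within the S100A4-negative libraries the members also differed together. Replicate 2 was the highest of the 3 for 8 of the 10 members and replicate 1 the lowest for 8. The red pulp macrophage markers had the same order, with sums of 51.3, 146 and 99.4 FPKM in S100A4-negative replicates 1, 2 and 3, as did the monocyte and macrophage markers, with 991, 1263 and 1083 FPKM. Blvrb and Tfrc were the exceptions at the top, being highest in replicate 3. Among S100A4-positive libraries replicate 1 was highest for 6 members, but lowest for Spic, Fth1 and Blvrb. These orders are descriptions of single libraries.

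Other genes of haem uptake, transport and breakdown were counted too. Of 12, 6 rose, 1 fell, 2 did not pass and 3 were too low to test. Lrp1, the receptor for haem bound to haemopexin, was at 763, 351 and 431 FPKM in S100A4-positive libraries and 6.64, 12.4 and 7.77 FPKM in S100A4-negative ones, a rise of 5.66 (SE 0.32, limma adjusted p = 2.64e-05). Hp, haptoglobin, and Hebp1, a haem-binding protein, rose by 2.42 and 2.73. Blvra, which turns biliverdin into bilirubin, rose by 1.74 to 45.2 ± 8.43 FPKM in S100A4-positive libraries, against 13.0 ± 3.21 FPKM in S100A4-negative ones (SD, n = 3 each). The fall of Pgrmc1 was lost in 5 of 15 alternatives, among them each rescaling.

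Genes of haem synthesis went both ways, as did all tested genes, of which 19.0% were called higher and 43.4% lower. Of 15 genes 3 rose, 4 fell, 7 did not pass and Abcb6 was too low to test, and the median was -0.13. Alas1, the rate-limiting enzyme of haem synthesis outside the red cell lineage, rose by 1.13 to 42.9 ± 8.15 FPKM in S100A4-positive libraries, against 19.1 ± 3.97 FPKM in S100A4-negative ones. Tmem14c, a mitochondrial porphyrin transporter, rose by 0.89. Alad and Cpox, enzymes of the middle steps, had log2 fold changes of -1.07 and -1.13 (limma adjusted p = 0.00136 and 3.12e-04). Rescaling turned the sign of the median, which was 0.23 after median-of-ratios rescaling, with 4 higher and 3 lower. The fall of Urod, counted above, held in 9 of 15 alternatives.

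Of 21 other genes of iron uptake, transport and storage, 7 rose, 1 fell, 5 did not pass and 8 were too low to test. Slc11a2, the iron importer DMT1, rose by 1.99 to 78.6 ± 19.9 FPKM in S100A4-positive libraries, against 18.7 ± 1.04 FPKM in S100A4-negative ones (limma adjusted p = 1.37e-04). Trf, transferrin, and Slc25a37, the mitochondrial iron importer mitoferrin, rose by 1.94 and 1.39. Lcn2, a neutrophil protein that binds iron carriers of bacteria, fell by 2.56 (limma adjusted p = 0.00562), along with the neutrophil markers given above, a list that also holds it. The rise of Steap3, counted above, held in 9 of 14 alternatives. Steap2, Hephl1 and Ftmt were listed at 0 in every library.

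Among 16 sensors and regulators of iron and haem, 7 rose, 2 fell, 3 did not pass and 4 were too low to test. Hfe, a partner of the transferrin receptors, was at 56.1, 42.0 and 49.3 FPKM in S100A4-positive libraries and 0.800, 1.71 and 2.24 FPKM in S100A4-negative ones, a rise of 4.31 (SE 0.23, limma adjusted p = 2.25e-05). Bach1, the haem-sensing repressor of Hmox1 and Spic, rose by 2.15, and Nfe2l2, which encodes the opposing activator NRF2, by 2.45 to 267 ± 13.7 FPKM in S100A4-positive libraries, against 48.1 ± 5.18 FPKM in S100A4-negative ones. Nr1h3, the oxysterol receptor LXR alpha, rose by 3.96. Ireb2, one of the iron regulatory proteins, was called lower as deposited, but the call was lost in 8 of 15 alternatives, among them each rescaling. Epas1, the other gene of this list that fell, had a log2 fold change of -0.80 (limma adjusted p = 0.00243) and was called in all 15. Among the rises, that of Mafk held in 9 of 15 alternatives and that of Aco1 in 14.

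Antioxidant target genes of NRF2 other than the members were higher: of 14, 12 rose, 0 fell, Osgin1 did not pass and Me1 was too low to test, with a median of 1.60. Srxn1, which repairs oxidised peroxiredoxins, rose by 3.10 to 136 ± 9.53 FPKM in S100A4-positive libraries, against 16.1 ± 7.52 FPKM in S100A4-negative ones. Slc7a11, the cystine importer, rose by 2.95, and Txnrd1 and Gsr, reductases of thioredoxin and glutathione, by 2.55 and 2.28. Macrophage markers rose beside all of these lists, and their part in them was not tested.

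**Figure D4:**
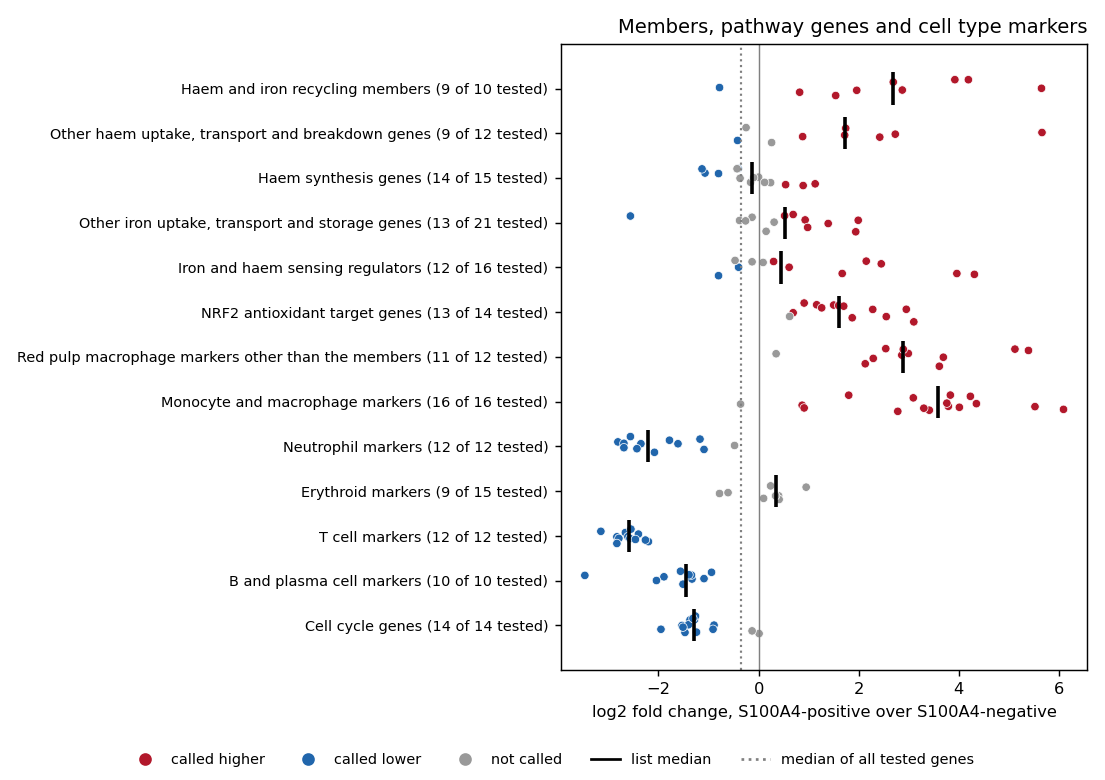
Log2 fold change (S100A4-positive over S100A4-negative) of each tested gene in 13 lists, red where called higher, blue where called lower and grey where not called, with a bar at the list median and a dotted line at the median of all tested genes. The members have a median of 2.69, between the monocyte and macrophage markers at 3.59 and the haem synthesis genes at -0.13.

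Erythroid precursors are known for high haem synthesis and high Tfrc. Of 15 erythroid markers 0 rose, 0 fell, 9 did not pass and 6 were too low to test. Their sums of 57.9 to 258 FPKM in S100A4-positive and 58.6 to 293 FPKM in S100A4-negative libraries overlapped and spread widely within each group. In each group the library with the highest sum also had the highest Tfrc. Klf1, Trim10 and Rhag stayed below 1 FPKM in every library. The part of erythroid cells in the levels of Tfrc and of the haem synthesis genes was not tested. Of 10 B and plasma cell markers all 10 fell, with sums of 519 to 772 FPKM in S100A4-positive and 2292 to 3348 FPKM in S100A4-negative libraries, and 5 fell after median-of-ratios rescaling.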

How the data were processed

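The deposited expression table gives FPKM per gene and library, made by the authors. The submitters' processing notes name HISAT2 2.1.0, Cufflinks, Cuffnorm and mm10 with no roles, and the counting of shared reads and strand is not given in the sources used here. The authors' deposited comparison table holds, per the file headers, a mean normalized read count per group (a signal), a log2 fold change, and p-values with adjusted p-values, with no test named. Whole reads per gene were computed from the FPKM and the deposited group means: all 135018 values above 0 came within 0.02 of a whole read. The main test was limma 3.58.1, run in R 4.3.3 with its trend option, on log2(FPKM + 1) of the 13241 genes averaging 1 FPKM or more, and 42710 were left out. The limma and voom fits were tested on simulated libraries in which only a small share of genes changed, unlike these data. That simulation did not test the effect of scaling. Python 3.11.15, numpy 2.4.6, pandas 2.3.3, scipy 1.17.1 and matplotlib 3.10.9 did the rest. Positions and IRE searches used GENCODE M21 on GRCm38, the same build as mm10.

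The members and the other 12 lists (haem handling, haem synthesis, iron transport, iron regulation, NRF2 targets, red pulp macrophage, monocyte and macrophage, neutrophil, erythroid, T cell, B and plasma cell, cell cycle) were chosen with earlier results of these data known. All members are named, and each list could name its 4 called genes of greatest change, or 2 by p if it had no call, some of which are given only in the counts. Other genes named were chosen after their values were seen. Exact two-sided permutation tests were used for ratios and for levels relative to markers. Alternatives were a pseudocount of 0.1, dropping the filter or raising it to 5, median-of-ratios or quantile rescaling, no trend, a replicate block, each library left out in turn, and limma voom on the recovered reads.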

Additional observations from a re-analysis of the deposited data

How the results depend on the processing

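The calls of 8 members held under all 15 alternatives, and that of Tfrc under 14. The genes called numbered 8253, and 6853 to 8172 with a library left out, 8857 with the replicate block, 6886 after median-of-ratios rescaling and 8916 with no filter. The members called were 9 with each library left out. Same-numbered libraries had correlated deviations from their group means for numbers 1 and 3 (0.376 and 0.366 across genes) but not for number 2 (0.083). Libraries with unlike numbers gave -0.379 to 0.146. These values do not settle whether same-numbered libraries are pairs. The main test and the permutation tests took none, and the smallest permutation p given above holds only without pairs. With the replicate block 9 members were called. Leaving out a library gave log2 ratio differences of 2.1 to 2.57 for Slc40a1 over Tfrc, 0.03 to 0.33 for Fth1 over Ftl1, 1.61 to 2.29 for Hmox1 over Blvrb and 3.52 to 3.76 for Hmox1 over Hmox2. Relative to red pulp macrophage markers in place of the 16 monocyte and macrophage markers, the difference of Fth1 turned to 0.05 and those of Hmox1, Ftl1, Slc40a1 and Slc48a1 were 1.10, -0.13, -1.28 and -2.0. With a pseudocount of 0.1 these 4 were 0.41, -0.82, -1.95 and -2.69 relative to the 16 markers. Cd163 had 2 to 28 reads a library, and what kept it from a call was not tested.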
